A study of Mus musculus with 5 samples.

Results

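The nuclear-encoded subunits of respiratory complexes II to V, with cytochrome c, were examined in transplanted mouse hearts. They were taken as a list of 44 genes by symbol, with 4 genes of complex II, 10 of complex III and cytochrome c, 15 of complex IV and 15 of complex V. Of these, 43 were measured by a probe set that the platform annotation gives to a single gene, out of 21789 such probe sets for 19938 genes. The exception was Cox7c, a small subunit of complex IV, whose probe sets are all annotated to a second gene as well. The brightest probe set stood for a gene that had several.

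Hearts of C57BL/6 mice, 8 weeks old by the study's methods, were implanted into the abdomen of syngeneic mice. The 3 I/R grafts had been kept for 18 h at 4 °C in University of Wisconsin (UW) solution before implantation, and the 2 non-I/R grafts were implanted without storage. The groups follow the source and tissue labels, since the treatment text given for the non-I/R samples repeats that of the I/R samples. All 5 grafts had therefore been excised, transplanted and reperfused, and no heart that stayed in its donor was among the arrays. Grafts were harvested at 24 h by the sample labels and at day 2 by the paper. Total RNA of each graft was hybridised to 1 Affymetrix Mouse Gene 1.0 ST array, and the values are log2 signals. The labels do not number the grafts, so they are called I/R 1 to 3 and non-I/R 1 and 2 in order of deposit. Nor do the labels describe the animals behind the arrays, so the p-values below measure the spread between these samples.

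In heart muscle most ATP is made by oxidative phosphorylation in mitochondria, which fill a large part of each cardiomyocyte. Complex II (succinate dehydrogenase) oxidises succinate in the citric acid cycle and passes the electrons to ubiquinone. Complex III hands them on to cytochrome c, complex IV (cytochrome c oxidase) delivers them to oxygen, and complex V (ATP synthase) uses the proton gradient that complexes I, III and IV build up. All subunits of complex II and most of complexes III to V are encoded in the nucleus, and several subunits of complexes IV and V come from paired genes with different tissue patterns. Succinate oxidation and cytochrome c release are both well known from studies of reperfused hearts.

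Array medians over all probe sets lay between 6.577 and 6.652 on the log2 scale. In limma the smallest adjusted p was 0.18, so 0 probe sets were below 0.05, and 3265 had an unadjusted p under 0.05. The methods name ANOVA for the arrays, which for 2 groups is a t-test with equal variances and is called the methods' t-test below, and it gave 2 and 2014. The results below are therefore counts at limma's unadjusted p under 0.05, each read against the share of all probe sets that did the same. Myl7, the atrial myosin light chain, differed widely within groups, with log2 signals of 6.72, 11.08 and 8.56 in I/R 1 to 3 and 10.67 and 5.52 in non-I/R 1 and 2. Grafts I/R 2 and non-I/R 1 also had the highest Myl4 and Sln signals of the 5 atrial markers. Nppa and Bmp10 were highest in non-I/R 1, with I/R 2 not above all other grafts. The main count and median are also given without both grafts.

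The subunit genes had lower signals in I/R grafts almost without exception. The mean was lower in I/R grafts for 42 of the 43 genes, against 54.4% of all probe sets, and the gene with a higher mean, Cox6a1, differed by 0.01. At an unadjusted p under 0.05, 35 genes (81.4%) were lower, against 7.35% of all probe sets, and none was higher, against 7.64%. None passed an adjusted p of 0.05 in limma, where their adjusted p lay between 0.282 and 0.956, nor in the methods' t-test, which placed 17 of them lower at an unadjusted p under 0.05, as it did 4.52% of all probe sets. The median log2 fold change (I/R minus non-I/R) over the 43 genes was -0.47, that is 72.1% of the non-I/R signal, and over all probe sets it was -0.01. Fewer cardiomyocytes and less RNA in each of them cannot be told apart in RNA of whole grafts.

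The unadjusted count rested on few arrays. It was 7 when non-I/R 1 was left out, where 4.06% of all probe sets were lower at that p. It was 17 when non-I/R 2 was left out (10.7% of all probe sets), 14 when I/R 1 was (6.77%), 24 when I/R 2 was (5.76%) and 31 when I/R 3 was (4.78%). With I/R 2 and non-I/R 1 both left out it was 9 (5.73%), and the median was -0.30. Counts for the single complexes below are to be read against the share of the same fit, which was 4.52% in the methods' t-test. The mean of I/R grafts was lower for the same 42 genes whichever single graft was left out. In 41 of them the groups did not overlap, so leaving out a graft could not turn the sign. That result is therefore no check of stability. The remaining gene, Cox6a2, had a log2 fold change of -0.03 when non-I/R 1 was left out.

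**Figure D1:**
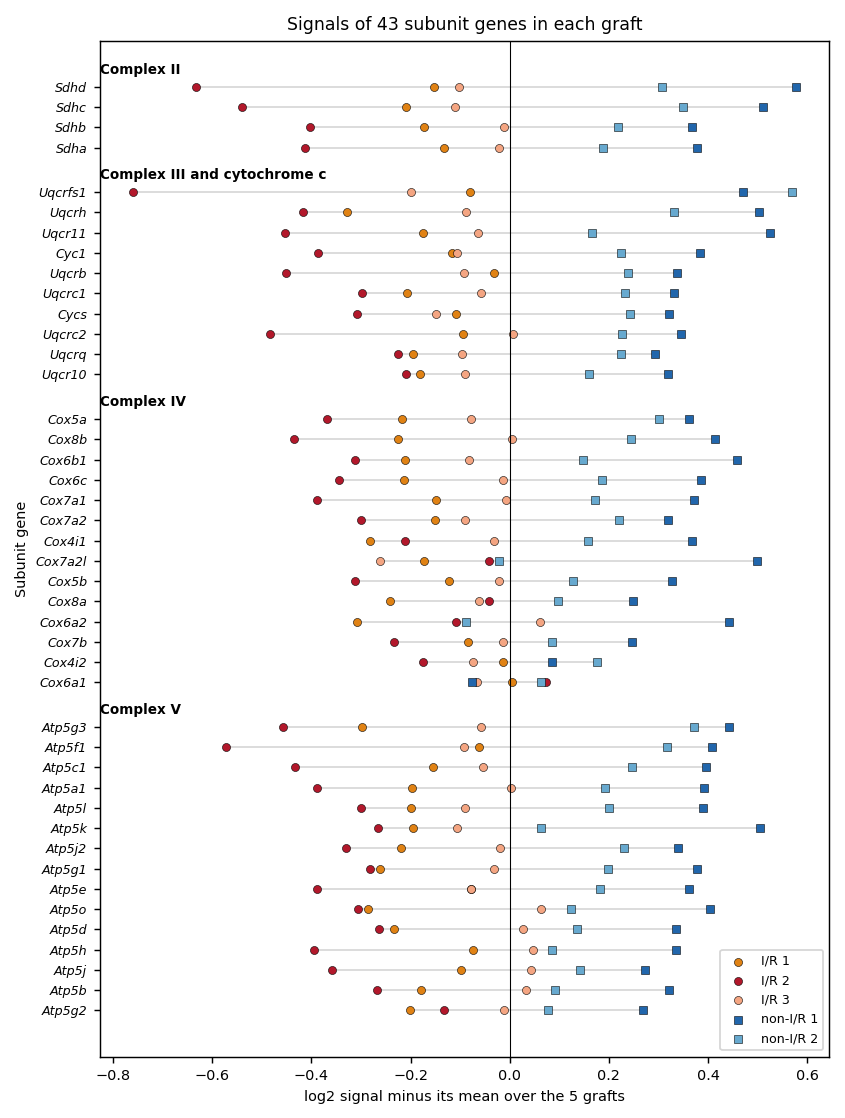
Log2 signal of each of the 43 measured subunit genes in each graft (x axis), as the deviation from the gene's mean over the 5 grafts; circles are the 3 I/R grafts and squares the 2 non-I/R grafts. In 41 genes all circles lie left of both squares, and Cox6a1 and Cox6a2 are the 2 genes whose groups overlap.

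The groups did not overlap in 41 of the 43 genes (95.3%), every I/R value lying below both non-I/R values. The same was seen in 16.2% of all probe sets, and 15.8% were separated the other way, as none of the subunit genes was. The gap between the highest I/R value and the lowest non-I/R value had a median of 0.23 and was at least 0.2 in 25 genes, while the I/R grafts themselves spanned a median of 0.31 and the non-I/R grafts 0.16. It was narrow in Cox7a2l (0.02), Atp5h (0.05), Atp5b (0.06) and Atp5o (0.06). Within each group the grafts followed the same order in most genes. I/R 2 was the lowest I/R graft in 37 genes and I/R 3 the highest in 34, and non-I/R 1 lay above non-I/R 2 in 40. The mean deviation of the 43 genes was -0.17, -0.33 and -0.05 in I/R 1 to 3 and 0.36 and 0.19 in non-I/R 1 and 2, so the spread within I/R grafts was close to the distance between the nearest grafts of the groups.

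**Figure D2:**
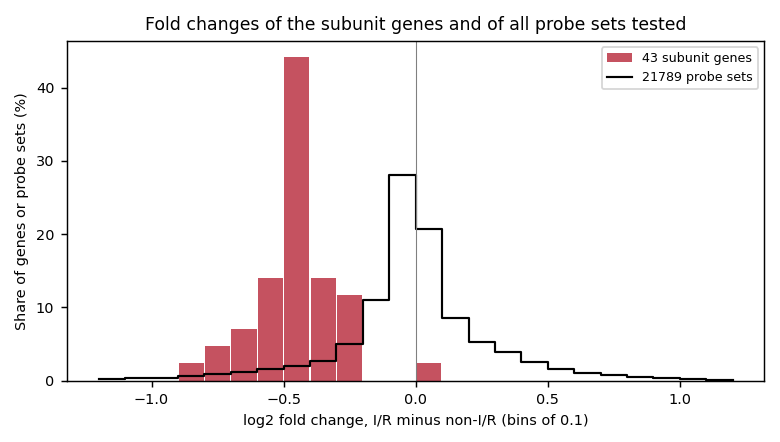
Share of the 43 subunit genes (bars) and of all 21789 probe sets tested (line) in bins of log2 fold change, I/R minus non-I/R, over the range drawn (values beyond 1.2 in either direction are not drawn). The subunit genes centre on -0.47, and 36 of the 43 lie between -0.6 and -0.2, while the probe sets centre on -0.01.

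Most differences were small, with log2 fold changes that ran from -0.86 (Uqcrfs1) to 0.01 (Cox6a1). A signal at least 1.3-fold lower in I/R grafts was found for 33 subunit genes, against 8.4% of all probe sets, at least 1.5-fold lower for 6, against 4.45%, and none was 2-fold lower, against 1.3%. The background share was higher among bright probe sets, and 38 of the subunit genes have a mean log2 signal of at least 10. Among the 2414 probe sets this bright, 16.8% were lower in I/R grafts at an unadjusted p under 0.05, 30.1% were separated with lower I/R values, and the median log2 fold change was 0.01. In the 12 genes with more than 1 single-gene probe set, 32 probe sets in all, every log2 fold change was below 0. The 6 probe sets of Atp5l lay between -0.58 and -0.49. In the dimmer probe set of Cox7a2l the groups overlapped, with 7.45, 7.45 and 7.16 in I/R and 7.95 and 7.45 in non-I/R grafts.

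**Figure D3:**
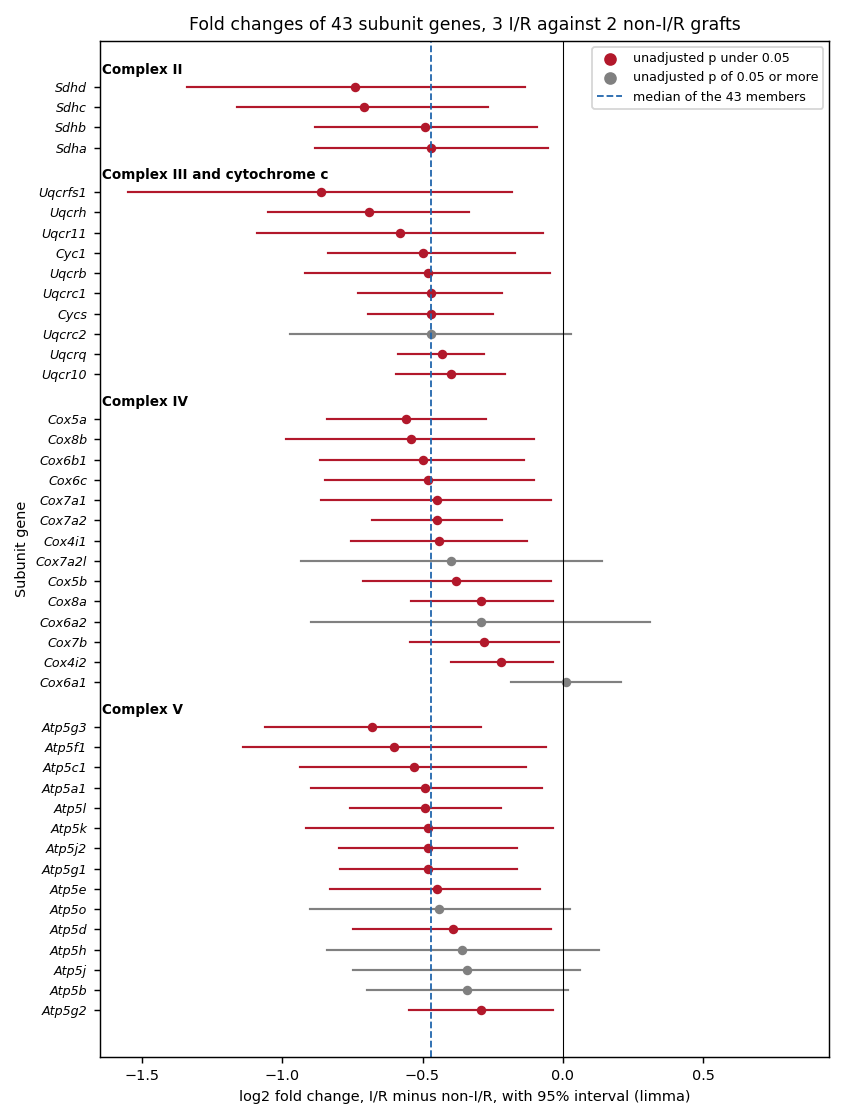
Log2 fold change of each subunit gene, I/R minus non-I/R (x axis, points), with its 95% interval from limma (bars), sorted within each complex; red marks an unadjusted p under 0.05. The point of Cox6a1 (0.01) is the single one not below 0, and the dashed line is the median of the 43 genes, -0.47.

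The genes lie on 18 chromosomes. Promoters from RefSeq (GRCm38.p6, 250 bases before to 50 after the start of transcription) were at hand for 34 of the 44, and both strands were searched for motifs of 4 factors known to act on respiratory genes. The NRF-1 site (GCGC, then any base, T and again GCGC) matched in 10 of the 34 genes (29.4%), against 7.17% of 17491 protein-coding genes. NRF-2, also called GABP (CCGGAAG), matched in 12 (35.3%), against 12.9% of genes. The site of the estrogen-related receptors (ERR, TNAAGGTCA) matched in 2 (5.88%), against 1.19%, and that of YY1 (AAGATGGCG) in 2 (5.88%), against 2.14%. No match of a motif overlapped a match of another. The following 28-base stretches, written on the strand of the gene with the motif in capitals, are examples from 6 genes whose values in each graft are given below.
Sdhd, NRF-1, chr9:50603910-50603937, minus strand: cgctggggtGCGCACGCGCggtggcagc
Sdhd, GABP, chr9:50603878-50603905, minus strand: cgtctcctgcCTTCCGGttcacgcttca
Sdha, NRF-1, chr13:74350277-74350304, minus strand: gggcgtgttGCGCAGGCGCagaatcttc
Uqcrh, GABP, chr4:116075071-116075098, minus strand: tacgaggagtatgccgcaCTTCCGGcca
Cox6a1, NRF-1, chr5:115349102-115349129, minus strand: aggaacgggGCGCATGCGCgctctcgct
Atp5g3, ERR, chr2:73911360-73911387, minus strand: gttacaaagTGACCTTGAgcgtcttccc
Atp5g2, NRF-1, chr15:102671071-102671098, minus strand: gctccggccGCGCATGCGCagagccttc

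Genes with and without a match had similar medians for NRF-1 and GABP. The median log2 fold change was -0.47 in the 10 measured genes with an NRF-1 match and -0.47 in the 23 without, and it was -0.48 in the 12 genes with a GABP match and -0.47 in the 21 without. The 2 genes with an ERR match, Sdhd and Atp5g3, had a median of -0.71, against -0.47 in the 31 without, and the 2 with a YY1 match, Atp5j and Atp5j2, had -0.41, against -0.47 in the 31 without. These medians rest on 2 genes each. Both Atp5g3 and Cox6a1 carry NRF-1 matches, and their log2 fold changes were -0.68 and 0.01. A match is a run of letters in the window, and binding was not measured here.

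Complex II had the lowest median of the 4 groups, -0.60, or 66.0% of the non-I/R signal. Each of its 4 genes was lower at an unadjusted p under 0.05, and each had separated groups. Sdha, the flavoprotein that oxidises succinate, had log2 signals of 12.30, 12.02 and 12.41 in I/R grafts and 12.81 and 12.62 in non-I/R grafts. Sdhb, the iron-sulfur subunit, had 11.63, 11.40 and 11.79 in I/R grafts and 12.17 and 12.02 in non-I/R grafts. These catalytic subunits form the head of the enzyme in the matrix, and their log2 fold changes were -0.47 (SE 0.147) and -0.49 (SE 0.14). Sdhc had 11.29, 10.96 and 11.39 in I/R grafts and 12.01 and 11.85 in non-I/R grafts. Sdhd had 10.84, 10.36 and 10.89 in I/R grafts and 11.57 and 11.30 in non-I/R grafts. Sdhc and Sdhd anchor the head in the inner membrane and bind ubiquinone, and their log2 fold changes were -0.71 (SE 0.158) and -0.74 (SE 0.213), or 61.0% and 60.0% of the non-I/R signal. In all 4 genes I/R 2 was the lowest graft and non-I/R 1 the highest. Whether the anchor subunits differed from the head subunits was not tested. The count of 4 became 0 when non-I/R 1 was left out, and 1 when non-I/R 2 or I/R 1 was left out or the methods' t-test was used.

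Complex III and cytochrome c had a median of -0.48, with a range of -0.86 to -0.40. All 10 genes had separated groups, and 9 were lower at an unadjusted p under 0.05. Uqcrq, a small subunit beside cytochrome b, had log2 signals of 11.04, 11.01 and 11.14 in I/R grafts and 11.53 and 11.46 in non-I/R grafts. Its log2 fold change of -0.43 (SE 0.0543, 74.0% of the non-I/R signal) had the smallest p of all subunit genes in limma (unadjusted p = 0.0016, adjusted p = 0.282). Cycs, the somatic cytochrome c, had 12.71, 12.51 and 12.67 in I/R grafts and 13.14 and 13.06 in non-I/R grafts, a log2 fold change of -0.47 (SE 0.079). Uqcr10, another small subunit, had 9.71, 9.68 and 9.80 in I/R grafts and 10.21 and 10.05 in non-I/R grafts, a log2 fold change of -0.40 (SE 0.0685). In these 3 genes replicate grafts lay close together, and the gap between the groups was wider than the spread within I/R grafts.

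The catalytic subunits of complex III were also lower. Cyc1, the cytochrome c1 that passes electrons to cytochrome c, had a log2 fold change of -0.50 (SE 0.118). Uqcrfs1, the Rieske iron-sulfur protein, was singled out after its values were seen, since its log2 fold change of -0.86 (SE 0.241) was the lowest of the 43 genes. Its log2 signals were 9.56, 8.88 and 9.44 in I/R grafts and 10.11 and 10.21 in non-I/R grafts, 54.9% of the non-I/R signal, and I/R 2 stood well below the other grafts. The core proteins Uqcrc1 and Uqcrc2 both had -0.47, with SEs of 0.0909 and 0.177, and Uqcrc2 was the gene of this group with an unadjusted p above 0.05 (0.0592 in limma). Uqcrh, the acidic hinge protein at the cytochrome c contact, had -0.69 (SE 0.127), with values of 11.69, 11.60 and 11.93 in I/R grafts and 12.52 and 12.35 in non-I/R grafts. Uqcrb and Uqcr11, further small subunits, had -0.48 and -0.58. The count of 9 became 4 when non-I/R 1 was left out and was 6 in the methods' t-test.

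Complex IV had a median of -0.42 over 14 measured genes of 15, and a range of -0.56 to 0.01 that took in the 2 genes with overlapping groups. At an unadjusted p under 0.05, 11 were lower. Cox5a, on the matrix side of the complex, had log2 signals of 10.92, 10.77 and 11.06 in I/R grafts and 11.50 and 11.44 in non-I/R grafts, and its difference of -0.56 (SE 0.1) was the lowest of the complex. Cox5b, Cox6b1, Cox6c and Cox7b, nuclear subunits with a single main form in heart, had -0.38, -0.50, -0.48 and -0.28, each with separated groups. After quantile normalization Cox6c had -0.21 and Cox7b -0.16 (limma unadjusted p = 0.193 and 0.152). Cox7a2l had -0.40 (SE 0.19, limma unadjusted p = 0.107). Its values of 8.02, 8.15 and 7.93 in I/R grafts lay just below the 8.17 of non-I/R 2 and well below the 8.69 of non-I/R 1. Its difference was -0.13 when non-I/R 1 was left out and -0.66 when non-I/R 2 was. When a graft was left out, the count of 11 became 2 (non-I/R 1), 5 (non-I/R 2), 3 (I/R 1), 4 (I/R 2) or 9 (I/R 3), and it was 5 in the methods' t-test.

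Several subunits of complex IV exist as a form of heart and skeletal muscle beside a form found in most tissues. Cox6a2, a muscle form, had log2 signals of 12.05, 12.25 and 12.42 in I/R grafts and 12.80 and 12.27 in non-I/R grafts. Its log2 fold change of -0.29 (SE 0.214, interval -0.897 to 0.311) rested on non-I/R 1, since non-I/R 2 lay within the I/R range, and was -0.03 when non-I/R 1 was left out. Cox6a1, its widespread counterpart, had 10.07, 10.14 and 10 in I/R grafts and 9.99 and 10.13 in non-I/R grafts, a log2 fold change of 0.01 (SE 0.0699, interval -0.186 to 0.209). The sign of the Cox6a1 difference turned when non-I/R 1 was left out (-0.06), when I/R 2 was (-0.03), when both were (-0.10) and with array weights (-0.02), so no direction is given for it. Cox7a1, a muscle form, had 12.44, 12.20 and 12.58 in I/R grafts and 12.96 and 12.76 in non-I/R grafts. Its counterpart Cox7a2 had 10.92, 10.77 and 10.98 in I/R grafts and 11.39 and 11.29 in non-I/R grafts. Both had a log2 fold change of -0.45, with SEs of 0.146 and 0.0824.

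The muscle form Cox8b had log2 signals of 12.45, 12.24 and 12.68 in I/R grafts and 13.09 and 12.92 in non-I/R grafts, a log2 fold change of -0.54 (SE 0.156). Cox8a, found in most tissues, had 11.08, 11.28 and 11.26 in I/R grafts and 11.57 and 11.42 in non-I/R grafts, a log2 fold change of -0.29 (SE 0.0892). Here I/R 2 was not the lowest I/R graft of Cox8a, unlike in most of the genes. Cox4i1, the regulatory subunit that is general to tissues, had 11.20, 11.27 and 11.45 in I/R grafts and 11.85 and 11.64 in non-I/R grafts, a log2 fold change of -0.44 (SE 0.111). Cox4i2, known as the oxygen-responsive form of lung and of pericytes, had 8.07, 7.91 and 8.01 in I/R grafts and 8.17 and 8.26 in non-I/R grafts, a log2 fold change of -0.22 (SE 0.0646). All 4 of these genes had separated groups, and the interval of each lay below 0.

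**Figure D4:**
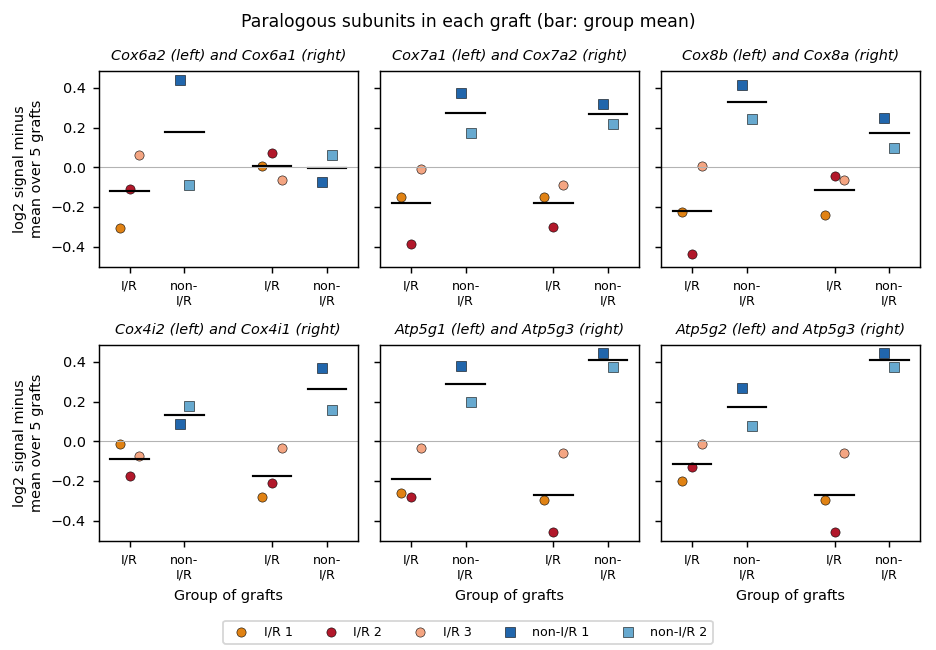
Log2 signal of paired subunit genes in each graft, as the deviation from the gene's mean over the 5 grafts (y axis), with circles for I/R grafts, squares for non-I/R grafts and bars for group means. The groups overlap in Cox6a1 and Cox6a2, while both Cox7a1 and Cox7a2 differ by -0.45 between the groups.

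Whether paralogs differed in their change was tested on the log2 ratio within each graft, over 6 pairs, with an exact two-sided permutation test. The 10 ways of dividing 3 and 2 grafts allow no p below 0.1, so no pair could pass 0.05. Cox6a2 minus Cox6a1 was -0.31 (95% interval -1.26 to 0.65, exact p = 0.4, adjusted over the pairs 0.48). Cox7a1 minus Cox7a2 was 0.00 (interval -0.24 to 0.23, exact p = 0.9, adjusted 0.90), the narrowest bound of the 4 pairs of complex IV. Cox8b minus Cox8a was -0.26 (interval -0.85 to 0.33, exact p = 0.3, adjusted 0.48), and Cox4i2 minus Cox4i1 was 0.22 (interval -0.29 to 0.74, exact p = 0.4, adjusted 0.48). The intervals are wide, so these values neither place the muscle forms apart from the widespread forms nor show that both kinds moved alike. The Cox6a pair turned to 0.03 when non-I/R 1 was left out.

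Complex V had a median of -0.48 and a range of -0.68 to -0.29. All 15 genes had separated groups, and 11 were lower at an unadjusted p under 0.05. Atp5l, subunit g of the membrane part, had log2 signals of 10.37, 10.27 and 10.48 in I/R grafts and 10.96 and 10.77 in non-I/R grafts, a log2 fold change of -0.49 (SE 0.0952). In the catalytic head, Atp5a1 (alpha), Atp5b (beta), Atp5c1 (gamma), Atp5d (delta) and Atp5e (epsilon) had -0.49, -0.34, -0.53, -0.39 and -0.45. Atp5b, which carries the catalytic sites, had a limma unadjusted p of 0.0582. In the stalk that holds the head still, Atp5o, Atp5f1, Atp5h and Atp5j had -0.44, -0.60, -0.36 and -0.34, and of these Atp5f1 had an unadjusted p under 0.05. The membrane subunits Atp5j2 and Atp5k had -0.48 each. That of Atp5k was -0.25 when non-I/R 1 was left out and -0.70 when non-I/R 2 was, and that of Atp5j2 stayed between -0.57 and -0.41 whichever graft was left out. Leaving out non-I/R 1 also brought Atp5b to -0.22 and Atp5h to -0.23, and Atp5h was -0.23 when I/R 2 was left out. After quantile normalization Atp5b had -0.15 and Atp5d -0.24. Leaving out a graft gave 1 (non-I/R 1), 4 (non-I/R 2), 2 (I/R 1) or 7 (I/R 2) in place of 11, and 11 again for I/R 3, to be read against the shares of all probe sets given above for the same fits. The 1 of 15 genes without non-I/R 1 is near that background. The methods' t-test gave 5.

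The c subunit of the rotating ring is encoded by 3 genes whose mature proteins are the same. Atp5g1 had log2 signals of 12.76, 12.74 and 12.99 in I/R grafts and 13.40 and 13.22 in non-I/R grafts, a log2 fold change of -0.48 (SE 0.111). Atp5g2 had 12.16, 12.23 and 12.35 in I/R grafts and 12.63 and 12.44 in non-I/R grafts, a log2 fold change of -0.29 (SE 0.0911), the smallest difference of complex V and -0.19 when non-I/R 1 was left out. Atp5g3 had 12.03, 11.87 and 12.27 in I/R grafts and 12.77 and 12.70 in non-I/R grafts, a log2 fold change of -0.68 (SE 0.136), the lowest of the complex. Atp5g3 had 62.6% of the non-I/R signal and Atp5g2 81.7%. The log2 ratio of Atp5g2 to Atp5g3 was 0.13, 0.35 and 0.07 in I/R grafts and -0.13 and -0.26 in non-I/R grafts, a difference of 0.38 (interval 0.00 to 0.77) without overlap. For Atp5g1 to Atp5g3 it was 0.73, 0.87 and 0.72 in I/R grafts and 0.64 and 0.51 in non-I/R grafts, a difference of 0.20 (interval -0.05 to 0.44). Both reached the smallest exact p the grafts allow (permutation p = 0.1, adjusted over the 6 pairs 0.30).

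Other genes of the same pathway were taken as lists. Of the 13 subunits encoded in mitochondrial DNA, 2 were measured, mt-Co2 of complex IV and mt-Nd3 of complex I. The mt-Co2 signals were 13.06, 13.22 and 13.07 in I/R grafts and 13.50 and 13.25 in non-I/R grafts, a log2 fold change of -0.26 (SE 0.102). The mt-Nd3 signals were 12.91, 12.93 and 12.95 in I/R grafts and 13.20 and 13.01 in non-I/R grafts, a log2 fold change of -0.17 (SE 0.066). Both had separated groups by a narrow gap, and neither had an unadjusted p under 0.05 in limma (0.067 and 0.0611). Of 34 measured nuclear subunits of complex I, all had separated groups with lower I/R values, against 16.2% of all probe sets. At an unadjusted p under 0.05 in limma, 23 (67.6%) were lower, against 7.35%, and the median was -0.54. Ndufa8 (-0.66, SE 0.0859) and Ndufa5 (-0.75, SE 0.149) had the smallest p of them. Other subunits and partners of complexes II to V were measured for 8 genes, of which 2 were lower at an unadjusted p under 0.05. Cox6b2, Cox7b2, Cox8c and Cyct, known from testis, had log2 fold changes of -0.08, 0.01, -0.03 and -0.16. Their mean log2 signals in non-I/R grafts were only 5.90, 3.95, 6.03 and 3.96, so values near 0 do not show that they were unchanged. The ATP synthase inhibitor Atpif1 had -0.57 (SE 0.155) at a non-I/R mean of 12.51. Usmg5, a small ATP synthase subunit, had -0.50 (SE 0.159) at 13.02.

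Assembly factors, which build the complexes and are not part of them, were less uniform, but also dimmer. Their median log2 signal was 8.97, against 12.02 in the subunit genes. Whether signal level accounts for the contrast was not tested. Of 34 measured, 31 had a lower mean in I/R grafts, with a median of -0.28 and a range of -1.07 to 0.40. At an unadjusted p under 0.05 in limma, 8 (23.5%) were lower, against 7.35% of all probe sets, and 1 was higher, against 7.64%. Atpaf1, a chaperone of the ATP synthase head, had log2 signals of 9.79, 8.99 and 9.54 in I/R grafts and 10.65 and 10.37 in non-I/R grafts, a log2 fold change of -1.07 (SE 0.287) or 47.5% of the non-I/R signal. Fmc1, known from yeast as needed for ATP synthase assembly under heat, had -0.77 (SE 0.216). Cox18, which inserts the mitochondrially encoded Cox2 into the membrane, was the factor with higher values: 10.41, 10.10 and 10.32 in I/R grafts and 9.83 and 9.99 in non-I/R grafts, a log2 fold change of 0.37 (SE 0.122). For complex IV, Cox17 and Cox10 were the factors with the smallest p among those with lower values (-0.29 and -0.13), and Cox19 had 0.40 (limma unadjusted p = 0.236). For complex II, Sdhaf1 and Sdhaf4 had -0.11 and -0.80. None of the 7 factors of complex III was below an unadjusted p of 0.05 in limma. Lyrm7 (-0.63) and Hccs (-0.27) came nearest, with limma p of 0.0558 and 0.0608.

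**Figure D5:**
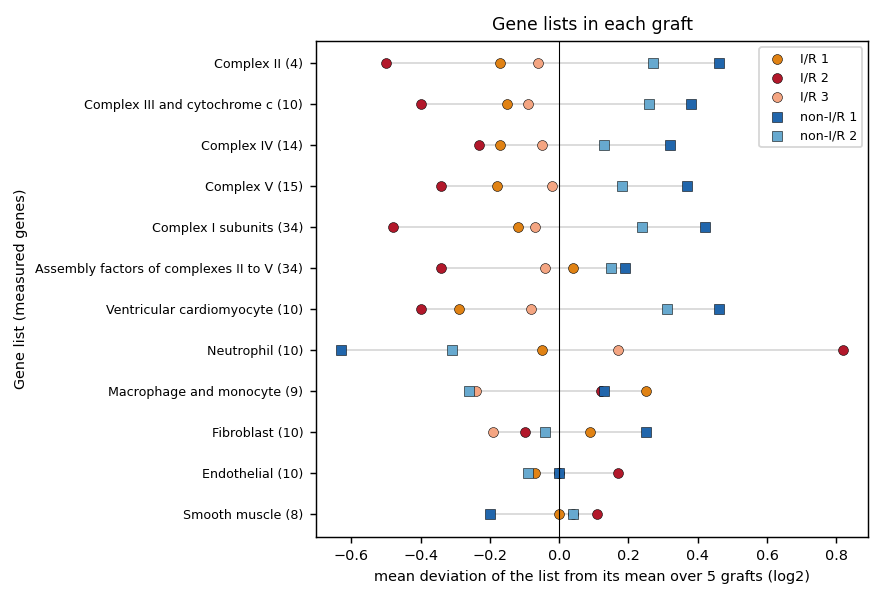
Each point is a gene list in 1 graft, as the mean over its genes of the log2 deviation from the 5-graft mean (x axis), in I/R grafts (circles) and non-I/R grafts (squares), with the number of measured genes in brackets. The 4 groups of subunits, complex I, the assembly factors and the list labelled ventricular cardiomyocyte have all I/R grafts below both non-I/R grafts. The neutrophil markers have all I/R grafts above both.

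Cardiomyocyte markers were lower alongside the subunit genes. Of 10 cardiomyocyte markers, contractile and calcium-handling genes listed as ventricular, all had lower means in I/R grafts, against 54.4% of all probe sets. At an unadjusted p under 0.05, 8 were lower, against 7.35%, and 9 had separated groups, against 16.2%. Among probe sets with a mean log2 signal of at least 10, 16.8% were lower at that p and 30.1% were separated. The markers had a median log2 signal of 12.7 and a median log2 fold change of -0.52. Mybpc3, a thick filament protein, had -0.79 (SE 0.0899) and Pln, the inhibitor of the calcium pump, -1.46 (SE 0.235). The log2 of their summed level was 15.78, 15.70 and 16.04 in I/R grafts and 16.53 and 16.37 in non-I/R grafts, and that of the 43 subunit genes was 17.34, 17.18 and 17.49 in I/R grafts and 17.88 and 17.70 in non-I/R grafts. The order of the 5 grafts was the same in both sums. Of 10 neutrophil markers, 9 had higher means in I/R grafts, as had 9932 of all 21789 probe sets. At an unadjusted p under 0.05, 4 were higher, against 7.64% of all probe sets, and 1, Lcn2, was lower, against 7.35%. The median over the 10 neutrophil markers was 0.90. The log2 of their summed level was 13.71, 14.45 and 13.89 in I/R grafts and 13.56 and 13.71 in non-I/R grafts, highest in I/R 2, the graft with the lowest subunit signals. Medians of macrophage, fibroblast, endothelial and smooth muscle markers were 0.02, -0.20, 0.12 and 0.06. The part of these cell types in the lower subunit signals was not tested.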

How the data were processed

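RNA of 5 heart grafts, 3 I/R and 2 non-I/R, had been measured on 1 array each. The authors deposited log2 values for 35556 probe sets. Partek and RMA are listed in the submitters' processing notes, and RMA corrects background, places arrays on a common distribution and summarises probes. A shift shared by most genes can be hidden by it. No further normalization was applied. Depth has no counterpart on arrays, where the number of arrays limits the precision. Probe sets were named by the platform annotation: 21789 had a single symbol, 1621 had several and 12146 were not listed. Values were tied between arrays in 11715 probe sets and in no subunit gene.

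Groups were compared with limma 3.58.1 in R 4.3.3 (lmFit, eBayes, two-sided), with Benjamini-Hochberg adjustment over the 21789 probe sets. Intervals are at 95%. Members and lists were chosen with earlier results of these data known, and no list was given a test. Values in every graft were given for the 3 genes of each complex with the smallest p, the gene with the highest log2 fold change and the paralog pairs. Those of Uqcrfs1, Uqcrh and Cox7a2l were added after their values were seen. Of other lists, the 2 genes with the smallest p in each direction were eligible. Cox6b2, Cox8c, Cyct and Sln were named outside this rule. Paralogs were compared by an exact permutation test. The steps were tested on simulated data. Alternatives were other eBayes settings, the methods' t-test (one-way ANOVA of 2 groups), scalings, array weights, filters, choices of probe set and leaving out grafts. The share among bright probe sets was added after seeing the data. Promoters came from RefSeq (GRCm38.p6). The genome build behind the arrays is not given in the sources used here. Python 3.11.15 with matplotlib 3.10.9 drew the figures.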

Additional observations from a re-analysis of the deposited data

How the results depend on the processing

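Of the 43 subunit genes, 35 were lower in I/R grafts at an unadjusted p under 0.05 in limma. The count was 17 with the methods' t-test, which compares 2 groups without pooling the spread over genes, and 9 without I/R 2 and non-I/R 1 together, with a median log2 fold change of -0.30 in place of -0.47. With each graft left out in turn the count lay between 7 (non-I/R 1 left out) and 31 (I/R 3 left out), and the median between -0.56 and -0.38. A graft left alone in its group was assumed to vary like the other group. The other scalings, filters, eBayes settings, array weights and choices of probe set gave counts of 29 to 37. The number of genes with separated groups was 39 after quantile normalization, 40 after median centring and 41 with the mean of a gene's probe sets. The other settings that kept all grafts leave the signals of the subunit genes unchanged, so they could not alter this number. Leaving out a graft cannot undo a separation, so it is no check of this number either. Cox6a1 had a log2 fold change of -0.02 with array weights, -0.10 without I/R 2 and non-I/R 1 together, and -0.06 to 0.08 with each graft left out. Cox6a2 minus Cox6a1 was 0.06 without I/R 2 and non-I/R 1 together, and -0.64 to 0.03 with each graft left out. Causes of these shifts were not tested. No paired analysis was possible because the labels carry no replicate numbers that the groups share. With 3 and 2 arrays, no exact test could give a p below 0.1.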
